A study of Mus musculus with 12 samples.

Results

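Genes of haem breakdown and iron handling were followed through mouse blood after an inhibitor of histone methylation, and the flavin and biliverdin reductase gene Blvrb was the member whose level moved most. The 9 genes were Hmox1, Blvrb, Blvra, Fth1, Ftl1, Tfrc, Slc11a2, Slc40a1 and Ireb2, found by symbol among the 55367 genes of the count table. RNA was sequenced from whole blood of CB17-SCID mice, which lack mature B and T cells and here bore HT1376 xenografts, tumours grown from a human bladder cancer line. For 11 days each mouse received an oral daily dose of vehicle or of CPI-0209 at 35 mpk, a label that stands for mg per kg. CPI-0209 (tulmimetostat) blocks EZH2 and EZH1, the catalytic subunits of Polycomb repressive complex 2. There were 4 groups of 3 libraries: vehicle, and CPI-0209 bled 1 h, 6 h or 24 h after the final dose. The labels give no bleeding time for vehicle, describe 1 dose only, and do not say that replicates came from separate mice. P-values therefore measure the spread between these libraries.

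Red cells hold most of the body's iron, in haem. When haem is degraded, haem oxygenase opens the ring to give iron, carbon monoxide and biliverdin, and biliverdin reductases turn biliverdin into bilirubin. Iron enters cells through the transferrin receptor, crosses the endosomal membrane by a divalent metal transporter, is stored in ferritin and leaves through ferroportin. Iron regulatory proteins, which include the product of Ireb2, bind hairpins called iron-responsive elements in messenger RNA: in a 5′ untranslated region they block translation, and in a 3′ untranslated region they can protect the transcript from decay.

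Of the 9 genes, 5 had letters that fit such a hairpin in an untranslated region, with no exon junction inside the site. These are shown because storage, uptake and export genes are textbook targets of this control, and a match here describes sequence only. The search read annotated untranslated regions of GENCODE M21 transcripts (GRCm38), on the transcript strand, for a C, 5 bases, the loop CAGTG followed by A, C or T, and 5 bases of which at least 4 paired with the first 5. Capitals mark the loop, and all sites are written 5′ to 3′. The Ftl1 and Fth1 sites lay in the 5′ region, at chr7:45459780-45459806 on the minus strand and chr19:9982733-9982759 on the plus strand. The Slc40a1 site was also 5′, at chr1:45925466-45925492 on the minus strand.
Fth1: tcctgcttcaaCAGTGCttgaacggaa
Ftl1: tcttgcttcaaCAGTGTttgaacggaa
Slc40a1: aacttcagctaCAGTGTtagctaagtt
Tfrc had 4 sites in its 3′ region, all on the plus strand: chr16:32631220-32631246, chr16:32631599-32631625, chr16:32631664-32631690 and chr16:32631711-32631737. Slc11a2 had 1, at chr15:100395154-100395180 on the minus strand, with 4 of 5 pairs where every other site had 5 of 5.
Tfrc site 1: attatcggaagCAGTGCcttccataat
Tfrc site 2: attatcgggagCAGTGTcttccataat
Tfrc site 3: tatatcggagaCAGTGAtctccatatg
Tfrc site 4: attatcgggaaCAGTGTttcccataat
Slc11a2: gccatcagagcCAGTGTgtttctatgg
By the same letters 0.694% of 20597 genes with a 5′ region and 3.16% of 20995 genes with a 3′ region held a match. These shares include matches that cross an exon junction, which were left out for the 9 members. No match free of an exon junction was found in Hmox1, Blvrb, Blvra or Ireb2.

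All 9 members passed the filter on low counts, which kept 13384 genes. Library totals were 6496573 to 9978215 counts. Levels below are CPM, scaled by TMM library sizes. Marker lists for neutrophils, classical monocytes and platelets had 10 genes each, and the 6 hepatocyte markers were under the filter. At 6 h against vehicle 1 neutrophil marker was higher in edgeR (list median log2 fold change 0.33), with 2 in DESeq2 and 2 in limma-voom. In edgeR 1 classical monocyte marker was lower (-0.44), with 2 in DESeq2 and 1 in limma-voom. For platelets 0 markers passed in edgeR (0.47), with 3 at an unadjusted p under 0.05, 2 in DESeq2 and 0 in limma-voom. Of all genes 4.06% were higher and 0.785% lower in edgeR. In either direction 8.67% of all genes passed in DESeq2 and 4.98% in limma-voom. For the platelet count at an unadjusted p no share of all genes is given. With library totals alone 0 neutrophil markers were higher and 2 lower, and 5 classical monocyte markers were lower. In that setting 2.57% of all genes were higher and 11.1% lower. The part of these cell types in the members' values was not tested. The 24 h libraries stood apart from each other. The mean log2 CPM of 30 red cell precursor genes was 6.76, 6.89 and 7.11 in the vehicle libraries. It was 7.45, 7.56 and 7.35 in the 1 h libraries and 8.42, 8.30 and 8.29 in the 6 h libraries, and the 24 h libraries had 6.34, 6.89 and 7.91. Their replicates differed by a chi-square of 30.4 to 101 per degree of freedom, against 8.62 to 19.2 within the other groups. Because all 12 libraries share 1 estimate of the spread in the edgeR quasi-likelihood model, results are also given without the 24 h libraries where that changed a call. In bulk blood, fewer cells of a type and less RNA per cell cannot be told apart.

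Per kilobase of the principal transcript, the order of levels in vehicle ran from the ferritins to the metal transporter. Ftl1 stood at 4289 ± 365 CPM per kilobase (SD, n = 3) and Fth1 at 3089 ± 159, at places 5 and 11 of 11306 genes with a length. Slc40a1 followed at 170 ± 34.2, then Tfrc at 97.7 ± 14.0 and Blvrb at 70.7 ± 15.4, whose libraries overlapped with those of Tfrc. Hmox1 had 39.0 ± 4.68, Ireb2 12.6 ± 1.01, Blvra 3.75 ± 0.585 and Slc11a2 2.38 ± 0.627. Except for Tfrc and Blvrb, no neighbours in this order overlapped. At 1 h Fth1 had 3544 ± 317 CPM per kilobase and Ftl1 2890 ± 385, which overlapped. Blvrb had 168 ± 12.7 at 1 h and already stood above Slc40a1, at 139 ± 6.05, with no overlap. At 6 h Fth1 led with 5325 ± 332 CPM per kilobase, above Ftl1 with 4599 ± 350. Blvrb, with 388 ± 54.8 and at place 161, again ranked above Slc40a1. At 24 h Fth1 had 3482 ± 1695, Ftl1 2755 ± 1450 and Blvrb 144 ± 96.3, and all neighbours from Fth1 to Hmox1 overlapped except Ftl1 with Blvrb.

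**Figure D1:**
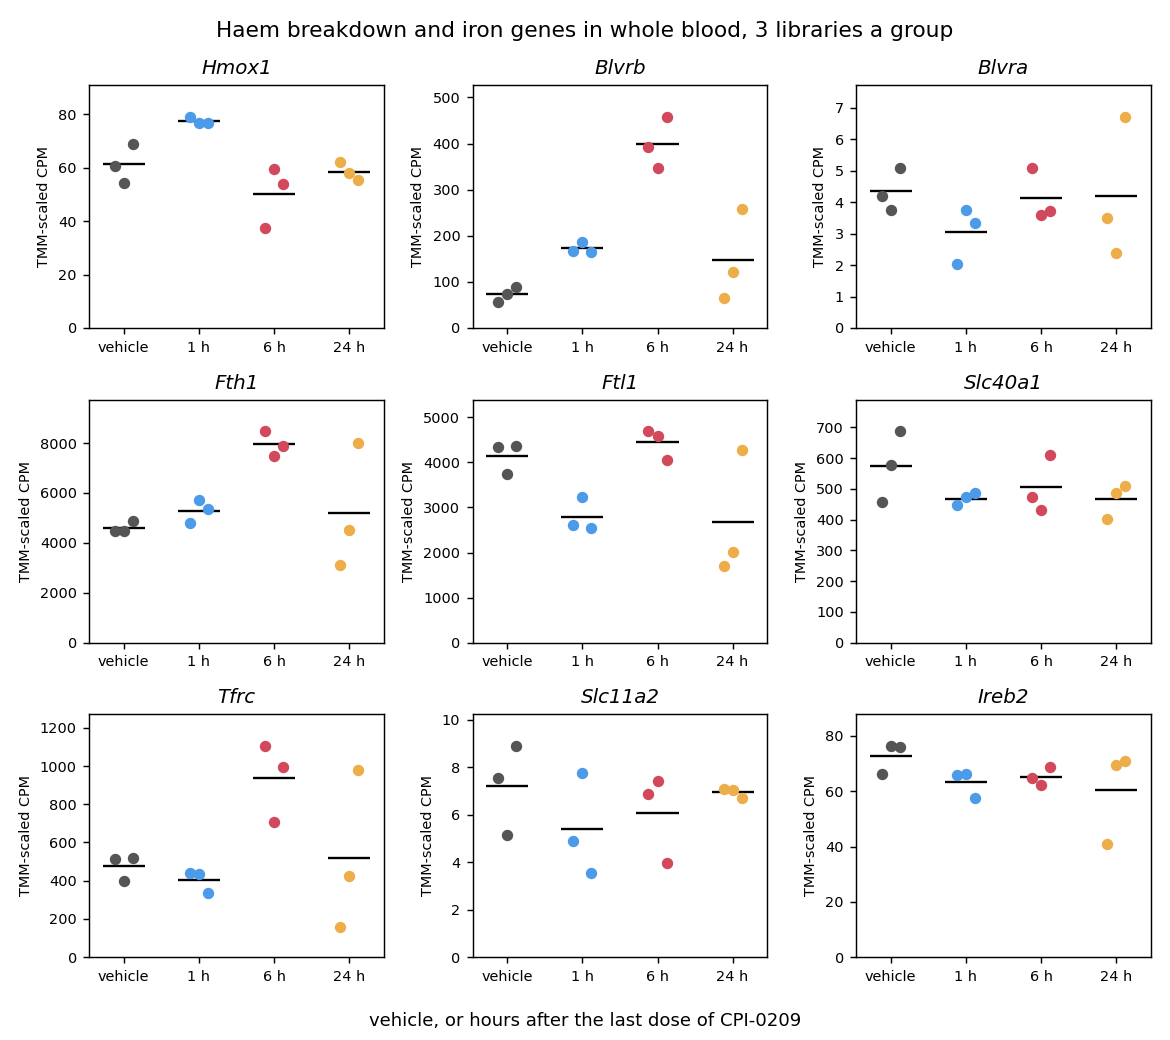
TMM-scaled CPM of the 9 genes (vertical axes, linear from 0) in each of 12 libraries, with vehicle and the 3 times after the last dose of CPI-0209 along the horizontal axis; a line marks each group's mean. Blvrb lay between 346 and 458 CPM in the 6 h libraries, above all vehicle libraries, and the 24 h points of Blvrb, Fth1, Ftl1 and Tfrc spread widely.

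Hmox1 encodes the inducible haem oxygenase, which opens the haem ring (ENSMUSG00000005413, chromosome 8, 75093621 to 75100589). It had 60.7, 54.2 and 68.8 CPM in vehicle, 79.1, 76.6 and 76.9 in 1 h libraries, 37.5, 59.5 and 53.7 in 6 h libraries, and 62.1, 58.1 and 55.5 in 24 h libraries. The 1 h libraries were all above vehicle, and those at 6 h and 24 h overlapped with it. Neither the log2 fold change at 1 h (0.34, SE 0.17, edgeR adjusted p = 0.752) nor that at 6 h (-0.28, SE 0.17, edgeR adjusted p = 0.397) passed.

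Blvrb, which reduces flavins and certain biliverdin isomers (ENSMUSG00000040466, chromosome 7, 27447978 to 27466144), had 56.1, 74.1 and 87.8 CPM in vehicle, 166, 187 and 164 in 1 h libraries, 393, 346 and 458 in 6 h libraries, and 65.8, 121 and 258 in 24 h libraries. All 1 h and all 6 h libraries were above all vehicle libraries, and the 6 h libraries were above the 1 h libraries. At 24 h only the lowest library fell within the vehicle range. Blvrb rose at 6 h by 2.46 on the log2 scale (SE 0.37, 5.49-fold, edgeR adjusted p = 0.00175), and it stayed past the threshold in each of the 24 alternatives tried, with log2 fold changes of 2.01 to 2.60. At 1 h the log2 fold change was 1.25 (SE 0.35, edgeR adjusted p = 0.255) with all libraries in the fit, and 1.26 (SE 0.16, edgeR adjusted p = 0.00102) without the 24 h libraries. At 24 h it was 1.03 (SE 0.35, edgeR adjusted p = 0.464), with 1.38 (edgeR adjusted p = 0.0454) without 24 h replicate 1 and 0.36 (edgeR adjusted p = 0.533) without 24 h replicate 3. The mean of the 3 times exceeded vehicle by 1.58 (SE 0.31, edgeR adjusted p = 0.0284). That last call was lost in 8 of the 12 fits that left out 1 library, each of the vehicle and 1 h libraries and 6 h replicates 1 and 3, with adjusted p of 0.055 to 0.172 in edgeR.

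Blvra, the main biliverdin reductase of adult tissues (ENSMUSG00000001999, chromosome 2, 127070665 to 127097084), was read by only 15 to 43 counts a library. It had 4.18, 3.76 and 5.09 CPM in vehicle, 2.04, 3.76 and 3.34 in 1 h libraries, 5.08, 3.59 and 3.73 in 6 h libraries, and 3.49, 2.38 and 6.72 in 24 h libraries, with all groups overlapping vehicle. Its log2 fold change at 6 h was -0.07 (SE 0.39, edgeR adjusted p = 0.942; 95% interval -0.85 to 0.70).

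The balance of the 2 reductases was compared within each library, where scaling cancels. Blvrb counts were 13.2, 19.4 and 17.0 times those of Blvra in vehicle, 78.7, 49.1 and 48.3 times in 1 h libraries, 76.4, 94.8 and 121 times in 6 h libraries, and 18.5, 49.5 and 38.0 times in 24 h libraries. Of the 9 CPI-0209 libraries 8 were above every vehicle library, and the first 24 h library lay within the vehicle range. The mean log2 ratio was 1.78 higher over the 9 CPI-0209 libraries than over the 3 vehicle libraries (exact two-sided permutation test, p = 0.00909, adjusted over 3 ratios p = 0.0136). Without vehicle replicate 1 or 3 the difference was 1.63 or 1.81, with an exact adjusted p of 0.0545 in both cases.

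**Figure D2:**
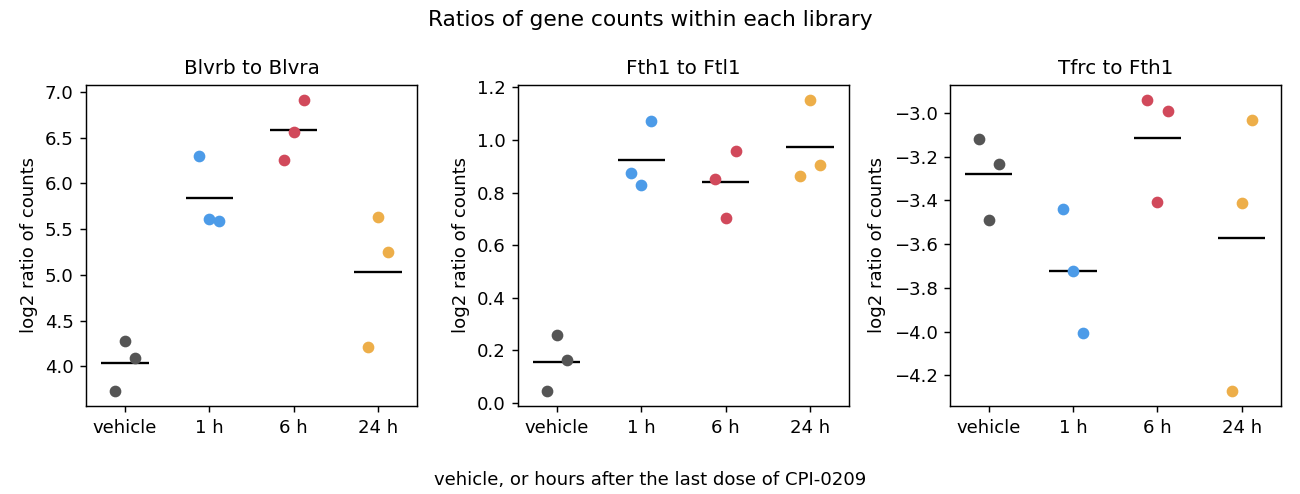
Log2 ratio of the counts of 2 genes within a library (vertical axes), for vehicle and the 3 times after the last dose (horizontal axis); each point is a library and a line marks the group mean. All 9 CPI-0209 libraries lie above the 3 vehicle libraries for Fth1 to Ftl1, where the linear ratio was at most 1.20 in vehicle.

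Iron storage genes gave the highest counts of the pathway. Fth1 encodes ferritin heavy chain, which oxidises iron on entry (ENSMUSG00000024661, chromosome 19, 9980598 to 9985098). It had 4474, 4482 and 4888 CPM in vehicle, 4789, 5728 and 5366 in 1 h libraries, 8478, 7493 and 7895 in 6 h libraries, and 3096, 4499 and 8011 in 24 h libraries. All 6 h libraries were above all vehicle libraries, and the 24 h libraries lay below, within and above the vehicle range. The log2 fold change at 6 h was 0.79 (SE 0.28, 1.72-fold, edgeR adjusted p = 0.134), and 0.77 (SE 0.11, edgeR adjusted p = 0.000354) without the 24 h libraries.

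Ftl1, the ferritin light chain, which supports the mineral core (ENSMUSG00000050708, chromosome 7, 45457944 to 45459884, minus strand), had 4341, 3744 and 4369 CPM in vehicle, 2614, 3226 and 2552 in 1 h libraries, 4693, 4598 and 4065 in 6 h libraries, and 1702, 2022 and 4277 in 24 h libraries. The 1 h libraries were all below vehicle, while the 6 h libraries overlapped with it. At 1 h the log2 fold change was -0.57 (SE 0.29, edgeR adjusted p = 0.752), and -0.55 (SE 0.12, edgeR adjusted p = 0.0352) without the 24 h libraries. At 6 h it was 0.10 (SE 0.29, edgeR adjusted p = 0.884). At 24 h it was -0.64 (SE 0.29, edgeR adjusted p = 0.586), with -1.16 (edgeR adjusted p = 0.00725) without 24 h replicate 3, whose Ftl1 level was in the vehicle range, and -0.40 (edgeR adjusted p = 0.715) without 24 h replicate 1.

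The ratio of heavy to light chain counts was compared in the same way. Fth1 counts were 1.03, 1.20 and 1.12 times those of Ftl1 in vehicle, 1.83, 1.78 and 2.10 times in 1 h libraries, 1.81, 1.63 and 1.94 times in 6 h libraries, and 1.82, 2.23 and 1.87 times in 24 h libraries. All 9 CPI-0209 libraries were above all 3 vehicle libraries, including the 24 h libraries that differed most in other genes. The mean log2 ratio was 0.76 higher with CPI-0209 (exact two-sided permutation test, p = 0.00455, the smallest that 220 arrangements allow, adjusted over 3 ratios p = 0.0136). Without vehicle replicate 1 or 3 the difference was 0.70 or 0.76, with an exact adjusted p of 0.0545 in both cases. The unadjusted p of that permutation test was 0.0182 in both, the smallest that 55 arrangements allow. The ratio does not say which subunit changed. Together the 2 genes took 0.823% to 0.926% of scaled counts in vehicle, 0.740% to 0.895% in 1 h libraries, 1.20% to 1.32% in 6 h libraries, and 0.480% to 1.23% in 24 h libraries.

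Ftl1 values carry an uncertainty in read assignment. There were 18 other genes with sequence at least 85% identical over at least 300 bases of Ftl1, with 7.62% to 9.70% as many counts as Ftl1 itself. Most belonged to Gm10252, annotated on the opposite strand across Ftl1 exons, with 952 to 3226 counts, and to the pseudogene Ftl1-ps1, 99.56% identical, with 151 to 453 counts. Use of strand in counting is not stated in the labels. Adding all copies to their parents left the difference in the Fth1 to Ftl1 ratio at 0.75 on the log2 scale, with an exact adjusted p of 0.0136. The 2 copies of Fth1 found by the same rule had at most 1 count in any library. The pseudogene Fth-ps2, which the rule did not find, had 1 to 16 counts a library.

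Iron uptake was represented by Tfrc, the transferrin receptor (ENSMUSG00000022797, chromosome 16, 32608920 to 32632794), whose transcript holds the 4 matches shown above. It had 514, 399 and 520 CPM in vehicle, 442, 433 and 334 in 1 h libraries, 1106, 706 and 993 in 6 h libraries, and 160, 423 and 978 in 24 h libraries. All 6 h libraries were above all vehicle libraries, and the 24 h libraries covered a range wider than vehicle and 1 h together. At 6 h the log2 fold change was 0.97 (SE 0.43, 1.96-fold, edgeR adjusted p = 0.233), and 0.95 (SE 0.18, edgeR adjusted p = 0.00296) without the 24 h libraries. At 24 h it was 0.12 (SE 0.43, edgeR adjusted p = 0.969), and turned to -0.72 (edgeR adjusted p = 0.310) without 24 h replicate 3. The ratio of Tfrc to Fth1 counts was 0.0890 to 0.115 in vehicle, 0.0622 to 0.0923 in 1 h libraries, 0.0942 to 0.130 in 6 h libraries, and 0.0517 to 0.122 in 24 h libraries. Its log2 difference between CPI-0209 and vehicle was -0.19 (exact two-sided permutation test, p = 0.536, adjusted p = 0.536).

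Slc11a2, the divalent metal transporter that carries iron out of endosomes (ENSMUSG00000023030, chromosome 15, 100387898 to 100425072, minus strand), had 31 to 70 counts a library. Its levels were 7.55, 5.16 and 8.91 CPM in vehicle, 4.90, 7.76 and 3.55 in 1 h libraries, 6.87, 7.43 and 3.98 in 6 h libraries, and 7.10, 7.04 and 6.72 in 24 h libraries. All groups overlapped vehicle, and the 6 h log2 fold change was -0.24 (SE 0.34, edgeR adjusted p = 0.751).

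Slc40a1, or ferroportin, the only known cellular iron exporter (ENSMUSG00000025993, chromosome 1, 45908068 to 45926523, minus strand), had 457, 578 and 687 CPM in vehicle, 446, 474 and 485 in 1 h libraries, 474, 432 and 611 in 6 h libraries, and 402, 487 and 509 in 24 h libraries. Each CPI-0209 group overlapped vehicle. The 6 h log2 fold change was -0.18 (SE 0.19, edgeR adjusted p = 0.648; 95% interval -0.56 to 0.19).

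Ireb2 encodes iron regulatory protein 2, which binds the hairpins (ENSMUSG00000032293, chromosome 9, 54863789 to 54912530). It had 66.1, 76.4 and 76.1 CPM in vehicle, 65.9, 66.4 and 57.5 in 1 h libraries, 65.0, 62.1 and 68.9 in 6 h libraries, and 41.0, 69.3 and 70.9 in 24 h libraries. The groups overlapped, and the 6 h log2 fold change was -0.16 (SE 0.19, edgeR adjusted p = 0.703; 95% interval -0.53 to 0.21).

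**Figure D3:**
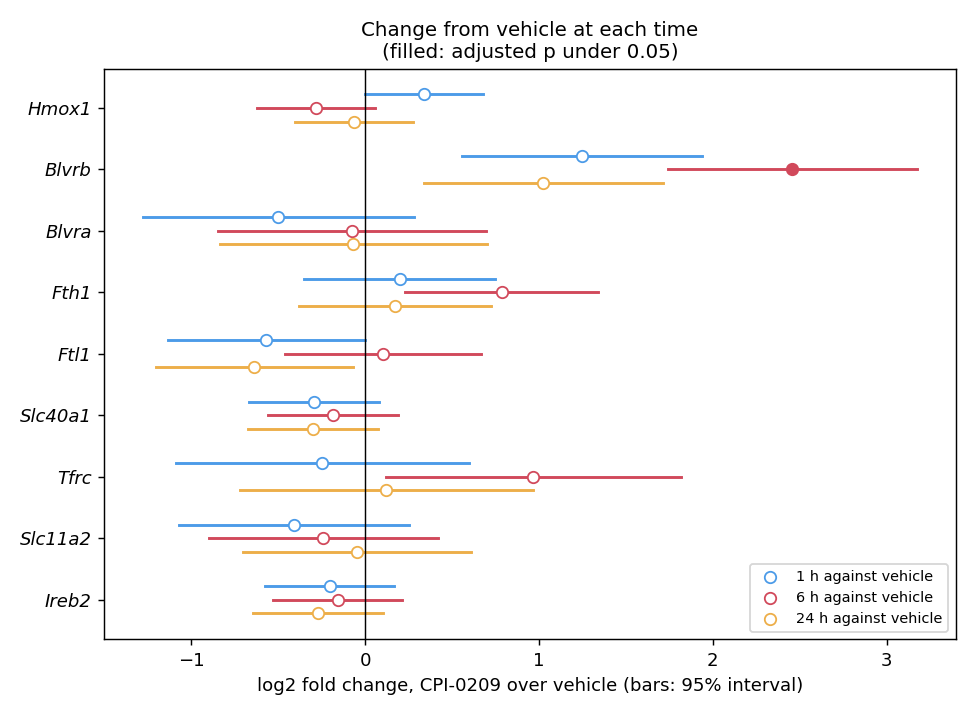
Log2 fold change of each gene against vehicle at 1 h, 6 h and 24 h (horizontal axis), with 95% intervals from the edgeR model over 12 libraries; filled points passed an adjusted p of 0.05. Blvrb at 6 h, at 2.46, is the only filled point.

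Counted over the pathway at 6 h, 1 of 9 members was higher than vehicle and 0 were lower, beside 4.06% of all 13384 genes higher and 0.785% lower. The members' median log2 fold change was -0.07 and that of all genes -0.04. There were 3 members, Blvrb, Fth1 and Tfrc, with all 6 h libraries above all vehicle libraries, as 15.8% of all genes had. Without the 24 h libraries these 3 passed the edgeR threshold as higher, where 8.78% of 13116 genes did. At 1 h 0 of 9 members passed in edgeR, beside 0.194% of all genes. At an unadjusted p under 0.05 there was 1, in DESeq2 1 (beside 1.14% of all genes) and in limma-voom 0. At 1 h, 2 members were all above vehicle (8.92% of all genes) and 1 was all below (8.44%). At 24 h 0 of 9 passed in edgeR, beside 0.105% of all genes, with 2 at an unadjusted p under 0.05 and 0 in DESeq2 and limma-voom. In the mean of the 3 times 1 was higher, beside 0.882% of all genes. For the counts at an unadjusted p under 0.05 no share of all genes is given, and the shares above are for other cut-offs. The comparisons with vehicle share the same 3 vehicle libraries.

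Scaling mattered at 6 h. TMM factors were 0.766 to 0.812 there and 1.03 to 1.12 in vehicle. With library totals alone the median log2 fold change of all genes at 6 h moved to -0.50, and Ftl1 turned to -0.36 (edgeR adjusted p = 0.163). Under that setting Blvrb was still higher (2.01), and Hmox1 (-0.73), Slc40a1 (-0.64) and Ireb2 (-0.61) passed as lower, with edgeR adjusted p of 0.0466, 0.0360 and 0.0422. In this setting 2.57% of all genes were higher and 11.1% lower. These 3 stood 0.23, 0.13 and 0.11 below the median of all genes in that setting.

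Between times, Blvrb was 1.21 higher at 6 h than at 1 h on the log2 scale (SE 0.35, edgeR adjusted p = 0.1005) and 1.43 lower at 24 h than at 6 h (log2 fold change -1.43, SE 0.35, edgeR adjusted p = 0.0520). Hmox1 went the other way, with all 6 h libraries below all 1 h libraries, as 13.8% of all genes had (-0.62, SE 0.17, edgeR adjusted p = 0.0939). Fth1 (0.59), Ftl1 (0.67) and Tfrc (1.21) had all 6 h libraries above all 1 h libraries, as did Blvrb, which makes 4 members where 18.1% of all genes did so. None of the 9 passed for 6 h against 1 h in edgeR (4 at an unadjusted p under 0.05, limma-voom 0). At the adjusted threshold 0.493% of all genes passed in edgeR. In DESeq2 2 of the 9 passed, beside 5.54% of all genes. Counts at an unadjusted p have no share of all genes at that cut-off beside them. Without the 24 h libraries Blvrb, Fth1, Ftl1 and Tfrc passed as higher and Hmox1 as lower, beside 8.26% of 13116 genes higher and 4.76% lower. For 24 h against 6 h, 0 members passed in edgeR, beside 1.76% of all genes, with 3 at an unadjusted p under 0.05. There was 1 in DESeq2, beside 8.41%, and 1 in limma-voom, beside 5.45%. Blvrb was the 1 member with all 24 h libraries below all 6 h libraries, as 12% of all genes were. Without 24 h replicate 3 there were 4, Blvrb (-2.10), Fth1 (-1.07), Ftl1 (-1.26) and Tfrc (-1.68), all lower, beside 10.2% of all genes. For 24 h against 1 h, 0 passed in edgeR, beside 0.0224% of all genes, with 1 at an unadjusted p under 0.05 and 0 in DESeq2 and limma-voom. Hmox1 had all 24 h libraries below all 1 h libraries, as 4.74% of all genes had.

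Genes of red cell precursors were higher at 6 h, as Blvrb was. Of the 30 genes in that list, 18 were higher at 6 h than in vehicle, beside 4.06% of all genes, with a median log2 fold change of 1.36. Without the 24 h libraries 26 were, beside 8.78% of all genes. At an unadjusted p under 0.05 there were 13 of the 30 at 1 h, with no share of all genes given. At 1 h 0 of the 30 passed in edgeR, beside 0.194% of all genes, 10 in DESeq2, beside 1.14%, and 0 in limma-voom. Without the 24 h libraries 13 did, beside 1.86% of all genes in either direction. Of 4 haemoglobin genes tested 2 were higher at 6 h, with a median of 1.45. The 10 haemoglobin genes in the table summed to only 979 to 2091 CPM in vehicle and 4331 to 5612 in 6 h libraries. Over all 12 libraries Hba-a1 had 93447 counts, where Alas2 of the red cell list had 3496206. Why haemoglobin counts were this low was not tested, and their change may not follow that of the other red cell genes. The summed level of the 30 was 51626 to 57483 CPM in vehicle, 55426 to 66619 in 1 h libraries, 99830 to 110438 in 6 h libraries, and 27135 to 83032 in 24 h libraries. Blvrb also changed its place relative to the list's mean. How many of the 30 genes also moved against that mean is not given. The log2 CPM of Blvrb minus the list's mean was -0.94, -0.67 and -0.65 in vehicle, -0.08, -0.01 and 0.00 in 1 h libraries, 0.20, 0.14 and 0.55 in 6 h libraries, and -0.29, 0.02 and 0.10 in 24 h libraries. The 24 h libraries kept the same order for Blvrb and for the list. For Tfrc the same difference was 2.25, 1.76 and 1.91 in vehicle, 1.33, 1.20 and 1.03 in 1 h libraries, 1.69, 1.17 and 1.67 in 6 h libraries, and 0.99, 1.83 and 2.02 in 24 h libraries, with no rise above vehicle at 6 h. The part of these genes in the results for Blvrb, Fth1 and Tfrc was not tested.

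**Figure D4:**
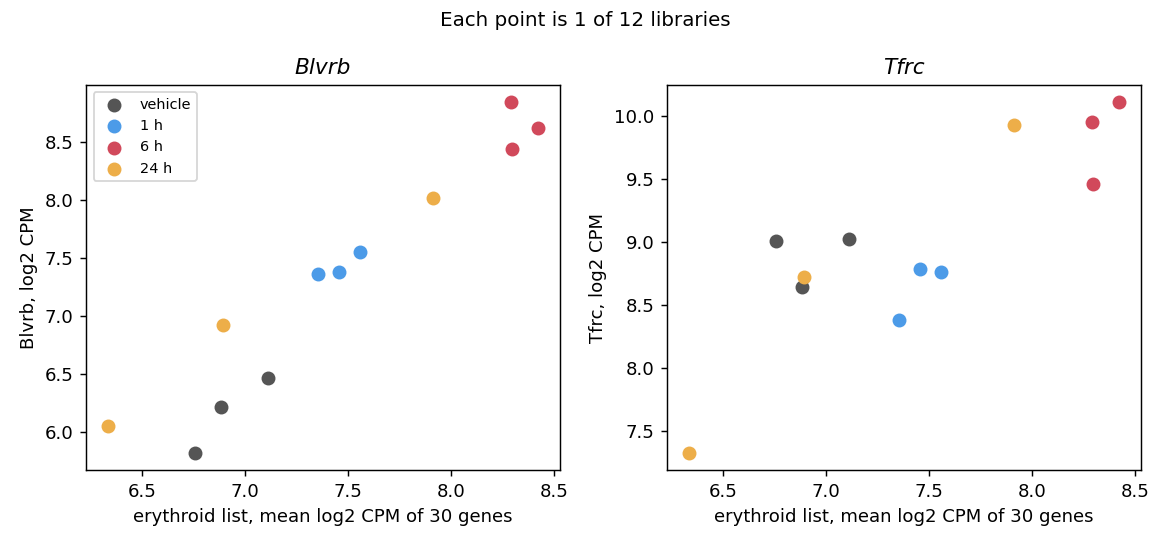
Log2 CPM of Blvrb (left) and Tfrc (right) on the vertical axes against the mean log2 CPM of 30 red cell precursor genes on the horizontal axis, 1 point a library. Blvrb is above the vehicle points in all 1 h and 6 h libraries, and the 24 h libraries, from 6.34 to 7.91 on the horizontal axis, span most of its range.

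Macrophages recycle the iron of old red cells and express Hmox1 and Slc40a1. Of 12 macrophage markers 9 were tested and 0 passed at 6 h in edgeR (1 at an unadjusted p under 0.05, DESeq2 1, limma-voom 0). In DESeq2 8.67% of all genes passed in that comparison, and no share is given for the unadjusted p. The markers' summed level was 310, 102 and 88.4 CPM in vehicle, 110 to 211 in 1 h libraries, 71.3 to 114 in 6 h libraries, and 84.1 to 145 in 24 h libraries. Over all 12 libraries Cd68 had 6397 counts and Adgre1 4653. Marco had 3, Vcam1 19 and Spic 70, and the other markers had between 138 (Cd163) and 629 (Vsig4). The part of macrophages in the Hmox1 and Slc40a1 values was not tested.

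Among 61 other genes written down for haem and iron handling, 59 were in the table and 49 were tested. At 6 h 7 were higher and 2 lower, beside 4.06% and 0.785% of all genes, with a median log2 fold change of 0.31 against -0.04 for all genes. Without the 24 h libraries 18 of 48 were higher and 3 lower, beside 8.78% of all 13116 genes higher and 491 genes lower. With library totals alone 6 were higher and 6 lower, beside 2.57% and 11.1% of all genes. Of those that rose, several act in haem synthesis. Alad, the aminolevulinate dehydratase, had 78.2 ± 14.6 CPM at 6 h, against 26.3 ± 3.63 in vehicle (SD, n = 3 each), a log2 fold change of 1.57 (SE 0.24, edgeR adjusted p = 0.00180). Urod, the uroporphyrinogen decarboxylase, had 374 ± 34.0 CPM at 6 h, against 126 ± 4.62 in vehicle (1.58, SE 0.36, edgeR adjusted p = 0.0231). Uros, the uroporphyrinogen III synthase, also passed with a log2 fold change of 1.75 (edgeR adjusted p = 0.0359), and was named after its value was seen.

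Outside haem synthesis, Nfs1, the cysteine desulfurase of iron-sulfur clusters, rose by 1.61 on the log2 scale (edgeR adjusted p = 0.0235) and Prnp, the prion protein, by 1.63 (edgeR adjusted p = 0.0111). Pcbp2, an RNA-binding protein that also delivers iron to ferritin, had 476 ± 26.0 CPM at 6 h, against 285 ± 20.3 in vehicle (0.74, SE 0.18, edgeR adjusted p = 0.0268). Steap4, a metalloreductase, fell to 453 ± 22.8 CPM at 6 h, against 771 ± 165 in vehicle (-0.77, SE 0.18, edgeR adjusted p = 0.0244). Ugt1a1, which conjugates bilirubin, fell to 1.63 ± 0.814 CPM at 6 h, against 4.98 ± 1.12 in vehicle (-1.61, SE 0.39, edgeR adjusted p = 0.0289). This rests on few reads, with 16, 14 and 6 counts in the 6 h libraries and 32, 50 and 46 in vehicle. At 1 h and at 24 h 0 of the 49 passed in edgeR, with 3 and 2 at an unadjusted p under 0.05, 1 and 0 in DESeq2 and 0 and 0 in limma-voom. Of all genes 0.194% and 0.105% passed in edgeR and 1.14% and 0.62% in DESeq2. Without 24 h replicate 3, 5 of the 49 were lower at 24 h, beside 76 of all 14089 genes. The hepcidin genes Hamp and Hamp2 had 0 counts in all libraries.

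Hmox1 and the ferritin genes are also known targets of NRF2 and BACH1, transcription factors that respond to oxidative stress and haem. Of 12 other targets 3 were higher at 6 h and 0 lower, beside 4.06% and 0.785% of all genes: Nqo1, a quinone reductase (2.28, edgeR adjusted p = 0.00946), Gclm, a glutathione synthesis subunit (1.77, edgeR adjusted p = 0.00488), and Prdx1, a peroxidase (1.11, edgeR adjusted p = 0.00624). The list's median log2 fold change was 0.41. With library totals alone 3 were higher and 1 lower, beside 2.57% and 11.1% of all genes. The same counts held without the 24 h libraries, beside 8.78% of all 13116 genes higher and 491 genes lower.

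Members differed in which genes followed them over the 12 libraries, among 11292 genes with an established name. These correlations of log2 CPM describe libraries that share depth and groups. Blvrb was closest to Tceal8, Ndfip1 and Tax1bp1 (Pearson r = 0.99 each). Fth1 was closest to Rb1, Ndufa1 and Rhoa (0.98 each), Ftl1 to Bola3 (0.98), Tlcd4 (0.98) and Rbm4 (0.97), and Tfrc to Gnas, Exoc6 and Adam10 (0.97 each). Hmox1 was closest to Birc3, Ap4b1 and Tmem87b, at 0.91, 0.91 and 0.89. Among the members themselves r was 0.92 for Tfrc and Fth1, 0.90 for Blvrb and Fth1, 0.71 for Fth1 and Ftl1, and 0.39 for Blvrb and Ftl1, over 12 libraries each.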

How the data were processed

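The authors deposited whole-number counts per gene for 12 libraries, not scaled to library size. Per the labels' protocols, RNA came from a PAXgene blood kit, with ribosomal RNA depletion and paired-end sequencing. The submitters' processing notes name RSEM, so the counts may be rounded estimates, and list hg38, although the gene identifiers are mouse. The aligner, its annotation and any use of strand were not stated. GENCODE M21 (GRCm38), which held 55035 of 55367 identifiers, gave positions, lengths and hairpin sites.

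Counts were filtered with filterByExpr, TMM-scaled and fitted with 4 group means in edgeR 4.0.16 (R 4.3.3), with Benjamini-Hochberg adjusted p-values over 13384 genes and a threshold of 0.05. Each 95% interval is the estimate with 1.96 SE each way. Prior counts were 2 for log2 CPM and 0.5 for ratios. Copies of the ferritin genes were found with blastn 2.17.0. DESeq2 1.42.0 and limma 3.58.1 were alternatives. Scripts were tested on simulated data.

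The members and lists were chosen with earlier results of these data known. Of the other haem and iron genes, up to 8 past the threshold with the smallest p were named, except for 1 that is not reported here. Leaving out the 24 h libraries and adding ferritin copies found by sequence were chosen after the data were seen.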

Additional observations from a re-analysis of the deposited data

How the results depend on the processing

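Of 637 recomputed fold changes of single genes, 566 kept their direction and side of the threshold, 57 came to pass it, 8 no longer passed and 6 changed sign. The number of members called moved with the setting, and so did the share of all genes called, given after each count. At 6 h against vehicle (1 member, 4.84%) it was 4 with library totals alone (13.7%), 2 with no filter (4.89%), 2 in DESeq2 (8.67%), 3 with only the groups compared (11.1%) and 3 without the 24 h libraries (12.5%). At 1 h (0, 0.194%) it was 1 with no filter (1.11%), in DESeq2 (1.14%) and with only the groups compared (1.62%), and 2 without the 24 h libraries (1.86%). At 24 h (0, 0.105%) it was 1 with no filter (0.916%). For 6 h against 1 h (0, 0.493%) it was 1 with library totals (5.04%), 2 with no filter (4.74%) and in DESeq2 (5.54%), and 5 with only the groups compared (13.8%) or without the 24 h libraries (13%). For 24 h against 6 h (0, 1.76%) it was 2 with library totals (22%) and with no filter (5.71%), and 1 with a filter of 5 CPM (4.65%), in DESeq2 (8.41%), in limma-voom (5.45%) and with the replicate block (3.12%). Leaving out 1 library at a time gave 1 to 3 at 6 h (1.74% to 8.99%), 0 to 1 at 1 h (0.0508% to 1.17%) and at 24 h (0.0218% to 0.795%), 0 to 2 in the mean of the times (0.102% to 2.56%), 0 to 5 for 6 h against 1 h (0.0289% to 9.12%) and 0 to 4 for 24 h against 6 h (0% to 15.9%). The differences in log2 ratio then ran from 1.63 to 1.98 for Blvrb to Blvra and from 0.70 to 0.81 for Fth1 to Ftl1. Signs turned for Ftl1 at 6 h with library totals (-0.36), Blvra at 6 h without vehicle replicate 3 (0.039) or 6 h replicate 2 (0.02), Tfrc at 24 h in limma-voom (-0.22) and without 24 h replicate 3 (-0.72), and Fth1 at 24 h without that replicate (-0.28). None of these had passed. With 1 library left out these 3 genes ran from -0.25 to 0.039 (Blvra at 6 h), -0.72 to 0.55 (Tfrc at 24 h) and -0.28 to 0.44 (Fth1 at 24 h).

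Replicate numbers are not said to pair libraries, and deviations of same-numbered libraries correlated at -0.11 to 0.17, so the replicate block was kept as an alternative. With it 24 h against 6 h had 1 member called, Blvrb (-1.57), and the ratio tests gave exact adjusted p of 0.0234 for both reductases and ferritins. Blvra had no value under the filter of 5 CPM, and the fit with only the groups compared was not run for the mean of the times, where it is the same fit. The cause of these changes was not tested. Depth limited Blvra and Slc11a2, at 15 to 43 and 31 to 70 counts a library, and outside the members Ugt1a1, at 6 to 50.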
